A study of Homo sapiens with 11 samples.

Results

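The 8 Mb of the short arm of chromosome 6 from 26.0 to 34.0 Mb (build hg19, chr6:26000001-34000000) are known for the largest cluster of human histone genes and, beside it, the major histocompatibility complex (MHC). All enriched regions whose centre lay in this stretch, called the 6p interval here, were taken from 8 lists of regions, which gave 2166 of the 407030 regions in all. The interval was divided at 28.5 Mb into the histone gene interval of 2.5 Mb with 429 regions and the MHC interval of 5.5 Mb with 1737 regions, and each list was set against the rest of chromosome 6, which had 16221 regions. Members were taken by position and not by a measured value, but the intervals were chosen with earlier results of these data known.

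The lists came from a study of RepID, a receptor of the CUL4 ubiquitin ligase, and its partners at replication origins. From U2OS, a human osteosarcoma line, there were nascent strands of wild-type cells, which map replication origins, and ChIP-Seq for CUL4A, CDT2, H3K4me3 and H3K9me3. For CDT2, the study's methods name wild-type cells whereas the series' own description names a line that overexpresses FLAG-tagged full-length RepID, and which was used could not be settled. From HCT116, a human colon carcinoma line, there were SKP2 ChIP-Seq of wild-type (WT) cells and, from RepID knock-out (KO) cells made with CRISPR-Cas9, SKP2 ChIP-Seq and nascent strands, the latter labelled as those of a clone. Each list stood for 1 sample, the other 3 of the 11 samples were inputs without a list, and the depth of the libraries was taken as unknown. With no replicates there was no spread between samples and no p-value, and the 95% intervals below cover counting error only and treat neighbouring regions as independent.

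Replication-dependent histone genes supply histones to newly made DNA in S phase, and most of them are short genes without introns. In the RefSeq annotation of another build (GRCh38.p14), used here for names and order only, chromosome 6 carries 55 protein-coding genes of this kind, which run in order from H2AC1 to H2BC17 with 95 transfer RNA genes among the 240 genes of that span. How many of these genes lie within the histone gene interval was not determined. The MHC holds the class I and class II genes, whose products present peptides to T cells, and between them the class III genes, which include complement factors and TNF. H3K4me3 marks active promoters, and H3K9me3 is known from heterochromatin. CUL4A is the scaffold of a ubiquitin ligase for which CDT2 is a receptor that reads substrates bound to PCNA on chromatin, while SKP2 is the substrate receptor of another ligase, SCF. No gene was assigned to a region, since the gene positions used here belong to another build than the lists.

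The 6p interval made up 4.68% of chromosome 6, and every list held more regions there than its length would give at the density of the rest of the chromosome. For H3K4me3 the interval held 313 of 1299 peaks of chromosome 6, a share of 24.1% (Wilson 95% interval 21.8 to 26.5%). Its density was 39.1 peaks per Mb against 6.05 in the rest, a ratio of 6.47 (exact 95% interval 5.68 to 7.35). As background for this ratio, 14.4% of 5685 windows of 8 Mb, stepped by 0.5 Mb along chromosomes 1 to 22 and X, had an H3K4me3 density at least 1.5 times that of the rest of their chromosome. Of those windows 0 reached the ratio of the 6p interval. Against the rest of chromosomes 1 to 22 and X the H3K4me3 ratio was lower, at 4.61 (4.11 to 5.16). With the rest of 6p alone as reference it was 4.82 (4.15 to 5.60).

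The density of the ligase lists was raised over the interval as a whole, though less than that of H3K4me3. CUL4A had 310 regions and a ratio of 3.37 (2.98 to 3.80), where 19.3% of the windows had a CUL4A ratio of 1.5 or more. This ratio was 2.01 (1.79 to 2.25) against the rest of chromosomes 1 to 22 and X, 5.44 (4.62 to 6.39) for the stronger 50% of the regions and 5.97 by bases covered. CDT2 had 153 peaks and a ratio of 2.86 (2.40 to 3.38), where 20.5% of the windows had such a ratio. SKP2 in HCT116 WT cells had 63 peaks and a ratio of 2.81 (2.12 to 3.66) against a background of 14.9% of windows. SKP2 in RepID KO cells had 56 peaks and a ratio of 2.07 (1.54 to 2.73) against 15.9% of windows.

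Origins and H3K9me3 had the same direction. U2OS cells had 630 origins in the interval, 11.0% of those on the chromosome, and a ratio of 2.51 (2.31 to 2.73) against a background of 19.2% of windows. HCT116 RepID KO cells had 407 origins and a ratio of 2.36 (2.12 to 2.61) against 18.5% of windows. H3K9me3 had 234 peaks and a ratio of 1.81 (1.58 to 2.07), where 13.1% of windows had a ratio of 1.5 or more, and the ratio was 1.48 (1.27 to 1.70) when the rest of 6p alone was taken for comparison. Windows as dense as the 6p interval were few in every list, from 0.862% of windows for SKP2 in WT cells to 5.91% for SKP2 in RepID KO cells outside H3K4me3.

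Within the interval, the histone gene and MHC intervals differed, and in opposite directions for H3K4me3 and for the other lists. H3K4me3 was the list with the higher density in the histone gene interval, with 132 peaks or 52.8 per Mb, against 181 peaks or 32.9 per Mb in the MHC interval, a ratio of 1.60 (1.27 to 2.02). This excess was one of number more than of extent, since the mark covered 11.4% of the bases of the histone gene interval and 10.2% of those of the MHC interval, and among the stronger 50% of the peaks the ratio was 1.41 (1.02 to 1.94). The other 7 lists were all denser in the MHC interval. For CUL4A, 36 regions or 14.4 per Mb stood against 274 or 49.8 per Mb, so that the MHC interval was 3.46 times as dense (2.44 to 5.04). For CDT2, 12 peaks or 4.80 per Mb stood against 141 or 25.6 per Mb, which made the MHC interval 5.34 times as dense (2.96 to 10.6).

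The remaining lists followed the ligase. In WT cells 5 SKP2 peaks lay in the histone gene interval and 58 in the MHC interval, which was 5.27 times as dense (2.13 to 16.8). In RepID KO cells the numbers were 4 and 52, and the MHC interval was 5.91 times as dense (2.17 to 22.5). H3K9me3 had 39 and 195 peaks (2.27 times, 1.60 to 3.29), U2OS origins 132 and 498 (1.71 times, 1.41 to 2.09), and HCT116 RepID KO origins 69 and 338 (2.23 times, 1.71 to 2.93).

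Set against the rest of chromosome 6, H3K4me3 and U2OS origins were the lists whose density in the histone gene interval passed the rule for a call, an interval that leaves out 1 and a ratio of at least 1.5. H3K4me3 was 8.73 times as dense there as in the rest (lower 95% bound 7.23). It was 6.51 times as dense (5.31 to 7.93) with the rest of 6p alone as reference. Against the rest of chromosomes 1 to 22 and X it was 6.22 times as dense (5.21 to 7.38). Of 5949 windows of 2.5 Mb, 0 had as high a ratio to the whole of the remaining chromosome as the 7.63 of H3K4me3. U2OS origins were 1.69 times as dense, with a lower 95% bound of 1.41, but 1.27 times (1.06 to 1.51) with the rest of 6p alone as reference, and with all of the remaining chromosome as reference their ratio of 1.59 was reached by 18.9% of such windows. CUL4A had a ratio of 1.25 (0.873 to 1.74), HCT116 RepID KO origins of 1.28 (0.992 to 1.62) and H3K9me3 of 0.968 (0.686 to 1.33), all with intervals that hold 1. The ratio of CDT2 was 0.717 (0.369 to 1.26), and those of SKP2 were 0.714 (0.231 to 1.68) in WT and 0.473 (0.129 to 1.22) in RepID KO cells, and their intervals hold 1 as well. With the rest of 6p alone as reference, CDT2 came to 0.556 (0.285 to 0.982) and SKP2 in RepID KO cells to 0.368 (0.0993 to 0.955), which passed the rule as lower. In the MHC interval all 8 lists passed, from a ratio of 2.20 (1.89 to 2.54) for H3K9me3 to 5.44 (4.62 to 6.38) for H3K4me3, with CUL4A at 4.33 (3.80 to 4.92) and CDT2 at 3.83 (3.19 to 4.57). As background, 5805 windows of 5.5 Mb were set against the whole of their remaining chromosome. The share as dense as the MHC interval ran from 0.0172% for H3K4me3 to 3.19% for HCT116 RepID KO origins. It was 1.31% for U2OS origins and 2.15% for RepID KO SKP2. The share of these windows that reach 1.5 was not counted.

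**Figure D1:**
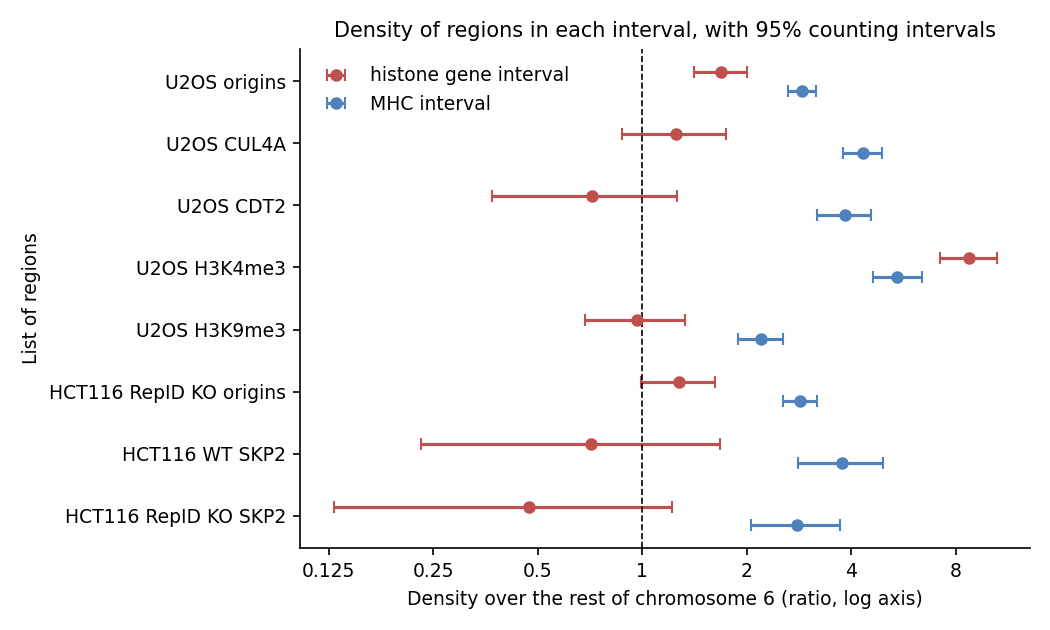
Number of regions per Mb in the histone gene interval (red) and in the MHC interval (blue) over that in the rest of chromosome 6, on a log axis, for each of the 8 lists, with exact 95% intervals of counting error and a dashed line at a ratio of 1. The MHC points all lie above 2, while in the histone gene interval H3K4me3 lies at 8.73 and 6 of the other lists have intervals that hold 1.

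Taken in steps of 0.5 Mb, the H3K4me3 peaks formed a dense block with a sharp right edge that lay beyond the border at 28.5 Mb. From 26.0 Mb on, successive bins held 33, 19, 29, 30 and 21 peaks, the bin from 28.5 to 29.0 Mb held 43, and that from 29.0 to 29.5 Mb held 0. The highest bin of the mark thus belongs by position to the MHC interval. From 29.5 Mb to 34.0 Mb the bins held between 8 and 25 peaks, which made 30.7 peaks per Mb against 6.05 per Mb in the rest of the chromosome. With the border moved 0.5 Mb to the right, the ratio of the histone gene interval to the MHC interval for H3K4me3 was 2.11 (1.68 to 2.66).

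The stretch without an H3K4me3 peak ran over 605319 bp (chr6:28985032-29590350). It was not empty of the other lists, which had 27 U2OS origins, 14 HCT116 RepID KO origins, 9 H3K9me3 peaks, 8 CUL4A regions and 6 CDT2 peaks there, and 3 SKP2 peaks in each of the HCT116 lines. Origins covered 11.6% of its bases in U2OS cells, less than the 36.4% of the MHC interval in which it lies. They covered 12.6% of the histone gene interval and 8.07% of the rest of the chromosome. The longest stretch without the mark inside the histone gene interval was 172028 bp (chr6:27874985-28047012).

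CUL4A and CDT2 were lower in each of these bins up to 29.5 Mb than in any bin after it. CUL4A had 5 to 8 regions in each bin up to 29.5 Mb, then 24 in the next, and reached 56 between 33.5 and 34.0 Mb. CDT2 had 1 to 5 peaks per bin up to 29.5 Mb and reached 27 between 31.5 and 32.0 Mb. SKP2 had no such edge, with at most 2 peaks per bin up to 29.5 Mb and 2 to 13 per bin after it in WT cells, and at most 3 and 1 to 12 in RepID KO cells. Both SKP2 lists had their highest bin from 33.0 to 33.5 Mb, with 13 and 12 peaks. U2OS origins began at 9 in the bin where H3K4me3 had 33, had 44 between 28.0 and 28.5 Mb, and reached 73 between 33.5 and 34.0 Mb.

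**Figure D2:**
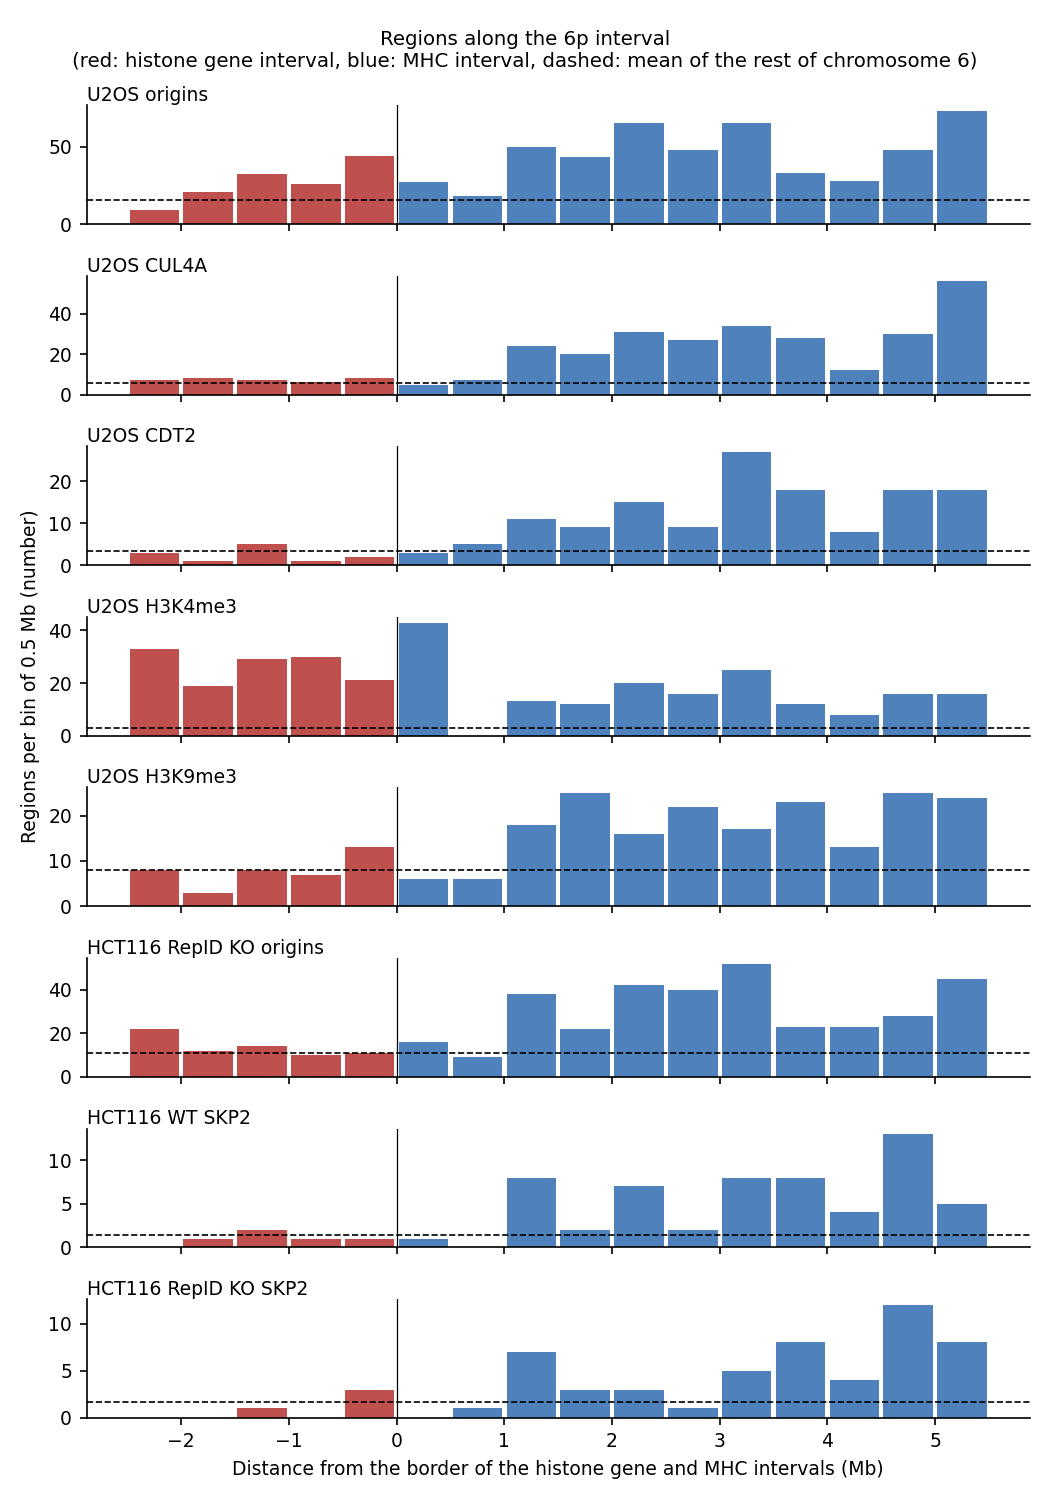
Number of regions in bins of 0.5 Mb along the 6p interval for each of the 8 lists, by distance in Mb from the border between the histone gene interval (red) and the MHC interval (blue), with the mean of the rest of chromosome 6 as a dashed line. H3K4me3 has its highest bins in the first 3 Mb and 0 peaks in the bin from 0.5 to 1.0 Mb, whereas CUL4A and CDT2 are higher in every bin from 1.0 Mb to the right than in any to its left.

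Regrouped at these edges, which were chosen after the profile was seen and so are given as description only, the first 3 Mb had 58.3 H3K4me3 peaks, 53.0 U2OS origins and 13.7 CUL4A regions per Mb, and 15 CDT2 peaks in all. The last 4.5 Mb had 30.7 H3K4me3 peaks, 101 U2OS origins and 58.2 CUL4A regions per Mb, and 133 CDT2 peaks in all. On a finer scale of 0.1 Mb, the histone gene interval had its most H3K4me3 peaks, 11, at 26.3 to 26.4 Mb, where there were 3 U2OS origins and 2 CUL4A regions. The bin with the most H3K4me3 peaks of the MHC interval, 13, was at 28.7 to 28.8 Mb and had 4 origins and 1 CUL4A region. CDT2 had its most peaks, 10, at 31.6 to 31.7 Mb and again at 32.0 to 32.1 Mb, with 9 and 14 CUL4A regions in these bins.

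Across these bins of 0.1 Mb, the origins of the 2 cell lines went together in the MHC interval and hardly in the histone gene interval. Spearman's rho of their numbers was 0.78 over the 55 bins of the MHC interval and 0.08 over the 25 bins of the histone gene interval. For CUL4A with U2OS origins rho was 0.76 and 0.25, and for H3K4me3 with U2OS origins it was 0.27 and 0.09. These values describe neighbouring bins of single libraries with few regions each, and the number of points differs between the intervals.

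The next question was which of these regions lay at the same place, counted as at least 1 shared bp. In the rest of chromosome 6, 59.9% of CUL4A regions met a U2OS origin. In the MHC interval the share was 87.6% (240 of 274, Wilson 95% interval 83.2 to 91.0%), and in the histone gene interval 18 of 36 did so (34.5 to 65.5%). The histone gene interval was 37.6 percentage points below the MHC interval (Newcombe 95% interval of the difference, histone minus MHC, -53.5 to -21.4), whereas its difference from the rest of the chromosome was -9.88 points (-25.6 to 5.80). CDT2 peaks met origins in 87.9% of 141 cases in the MHC interval, in 7 of 12 cases in the histone gene interval and in 55.7% of 1092 cases in the rest.

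Width and coverage moved with these shares. U2OS origins covered 36.4% of the bases of the MHC interval, 12.6% of the histone gene interval and 8.07% of the rest, and CUL4A regions had a median width of 3000, 1500 and 1400 bp in the same order. When each region was cut to the 1 kb about its midpoint, 40.5% of CUL4A regions met an origin in the MHC interval, 38.9% in the histone gene interval and 39.1% in the rest. The higher share of CUL4A regions at origins in the 6p interval was thus present with whole regions, at 23.3 percentage points over the rest (18.3 to 27.7), and came to 1.27 points (-4.49 to 7.23) with 1 kb around the centres. For CDT2 peaks at origins the difference went likewise from 29.9 points (22.9 to 35.5) to 2.75 (-5.38 to 11.2). Beyond this alternative, the part of width and coverage in the result was not tested.

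Origins themselves met other lists at shares that differed by interval. A CUL4A region was met by 47.8% of U2OS origins in the MHC interval (43.4 to 52.2%), by 13.6% in the histone gene interval (8.80 to 20.5%) and by 1125 of 5107 in the rest of the chromosome (20.9 to 23.2%). CUL4A regions covered 19.5%, 2.47% and 2.37% of the bases in the same order. Over the whole 6p interval the difference from the rest was 18.6 points (14.7 to 22.6). With 1 kb around the centres it came to 5.49 points (2.40 to 8.91). For H3K4me3 the histone gene interval had the highest share, with 37.9% of 132 origins (30.1 to 46.4%), against 28.1% of 498 in the MHC interval (24.3 to 32.2%) and 9.18% in the rest, while the mark covered 11.4%, 10.2% and 1.30% of the bases. With the stronger 50% of both lists the histone gene interval was no longer the higher, with a difference from the MHC interval of -2.14 points (-13.9 to 12.6). Origins of HCT116 RepID KO cells met a U2OS origin in 79.6% of 338 cases in the MHC interval and in 47.8% of 69 cases in the histone gene interval, and in 49.0% of cases in the rest. With 1 kb around the centres these shares were 37.3%, 33.3% and 28.4%, and the difference between the histone gene and MHC intervals, -31.8 points (-43.8 to -19.3) with whole regions, came to -3.94 (-15.2 to 8.81).

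Read from the H3K4me3 peaks, a comparison that was added after the first values were seen, the histone gene interval stood out by peaks that no other list met. There 62 of 132 peaks met none of the other 7 lists, a share of 47.0% (38.7 to 55.4%), against 15.5% in the MHC interval (10.9 to 21.4%) and 23.7% in the rest of the chromosome (21.2 to 26.5%). U2OS origins met 37.1% of the peaks of the histone gene interval, 73.5% of those of the MHC interval and 46.1% of those of the rest. Origins of HCT116 RepID KO cells met 24.2%, 67.4% and 64.1%, so that the histone gene interval was 39.9 percentage points below the rest (difference -39.9, Newcombe 95% interval -47.0 to -31.3). CUL4A regions met 11.4%, 50.3% and 25.3%, which put the histone gene interval 13.9 points below the rest (difference -13.9, -19.1 to -6.85). For the other 5 lists the interval of the difference between the histone gene interval and the rest held 0, with -17.4 to 0.0166 points for U2OS origins and -5.58 to 2.67 for CDT2.

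**Figure D3:**
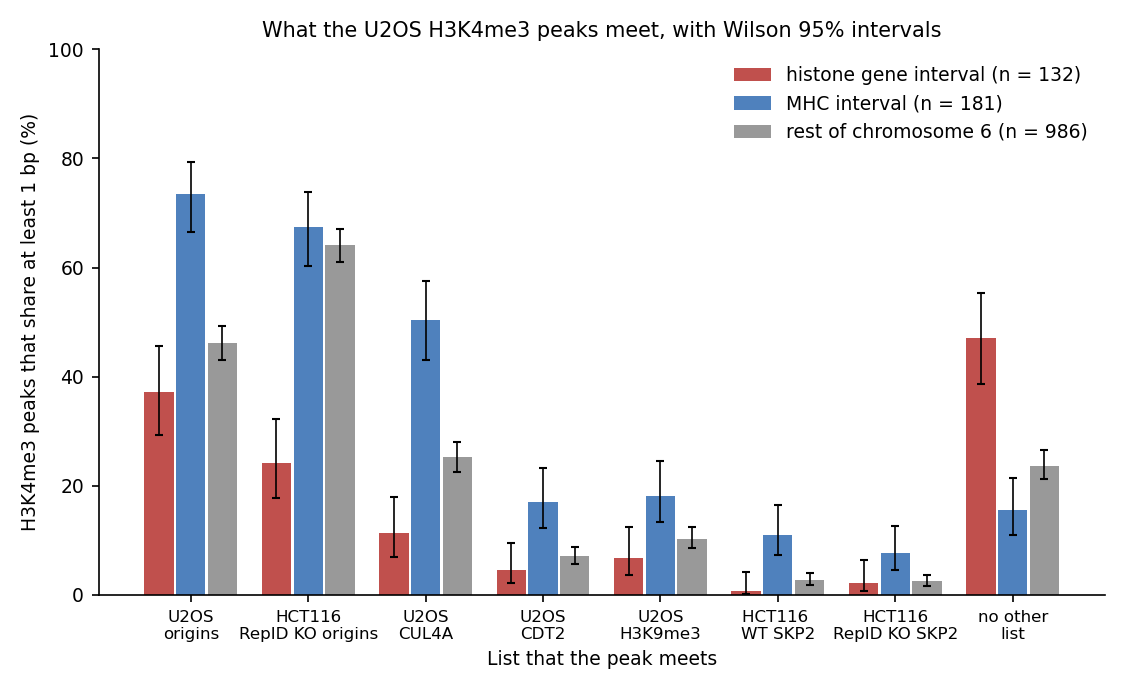
Percentage of U2OS H3K4me3 peaks that share at least 1 bp with a region of each other list, or with none, in the histone gene interval (red), the MHC interval (blue) and the rest of chromosome 6 (grey), with Wilson 95% intervals. The red bar is the lowest for all 7 partners, though its difference from the grey bar leaves out 0 only for HCT116 RepID KO origins and CUL4A, and, at 47.0%, the highest for peaks that no other list met.

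H3K4me3 peaks were of similar median width in the histone gene interval, 1747 bp, and in the rest of the chromosome, 1831 bp, and wider in the MHC interval, 2439 bp. Their median fold enrichment over the control was 6.92 in the histone gene interval, 8.34 in the MHC interval and 7.06 in the rest. With 1 kb around the centres, HCT116 RepID KO origins met 18.9% of the peaks of the histone gene interval, 29.3% of those of the MHC interval and 48.7% of those of the rest. The same alternative gave 23.5%, 34.8% and 29.3% for U2OS origins. The nearest U2OS origin lay at a median distance of 1978 bp from an H3K4me3 peak of the histone gene interval, and 72.7% of these peaks had one within 10 kb, compared with a median of 1269 bp and 72.2% in the rest of the chromosome. For CUL4A the median distance was 15250 bp in the histone gene interval and 12926 bp in the rest, while in the MHC interval both medians were 0.

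The 43 H3K4me3 peaks of the bin from 28.5 to 29.0 Mb had the values of the histone gene interval and not those of the MHC interval to which the border assigns them. Of these peaks 37.2% met a U2OS origin, 9.30% a CUL4A region and 48.8% none of the other lists. From 29.5 Mb on, 84.8% of the 138 peaks met a U2OS origin, 81.2% an HCT116 RepID KO origin and 63.0% a CUL4A region, and 5.07% met no other list. These shares were taken over blocks set after the profile was seen and are descriptive.

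**Figure D4:**
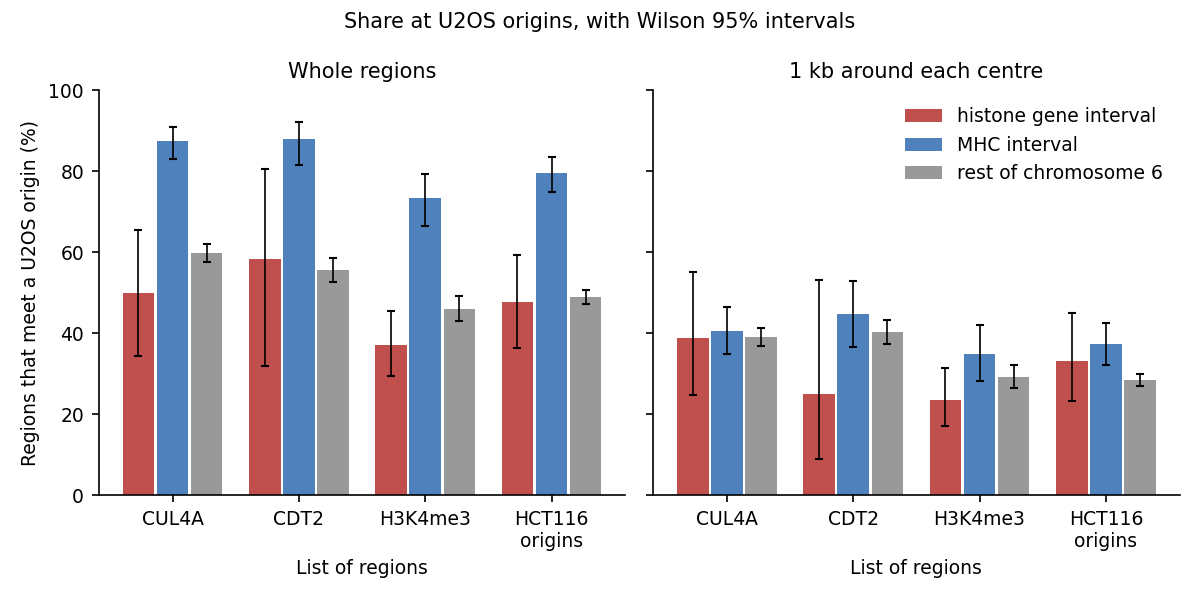
Percentage of CUL4A, CDT2 and H3K4me3 regions and of HCT116 RepID KO origins that meet a U2OS origin in the histone gene interval (red), the MHC interval (blue) and the rest of chromosome 6 (grey), for whole regions and for 1 kb around each centre, with Wilson 95% intervals. The MHC bars of 73.5 to 87.9% with whole regions come to between 34.8 and 44.7% with 1 kb around the centres, where the grey bars lie between 28.4 and 40.4%.

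Wide U2OS origins and CUL4A regions were a larger share in the MHC interval than in the rest of the chromosome. Of 498 U2OS origins in the MHC interval 34 were at least 10 kb wide, or 6.83% (4.93 to 9.39%), against 1.43% in the rest of the chromosome. In the histone gene interval there were 0 of 132, which allows a share of up to 2.27% by a floor of 3 counts and up to 2.83% by the Wilson interval. These bounds lie below the share of the MHC interval but above that of the rest, from which this 0 cannot be told apart. CUL4A had 22 of 274 such regions in the MHC interval, 8.03% (5.36 to 11.9%), against 0.959% in the rest, and 0 of 36 in the histone gene interval, which allows up to 8.33% by the floor and 9.64% by the Wilson interval. Both bounds lie above 8.03%, so for CUL4A the histone gene and MHC intervals cannot be told apart by wide regions.

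H3K4me3 peaks of at least 10 kb numbered 9 in the 6p interval, of which 1 lay in the histone gene interval, and 0 of 986 peaks in the rest of chromosome 6 were as wide. In the whole list outside the interval 71 of 24868 peaks were, or 0.286% (0.226 to 0.360%), compared with 2.88% in the interval (1.52 to 5.37%). The widest, of 21199 bp, lay at chr6:33379076-33400274 and met regions of all other 7 lists. The single one of the histone gene interval lay at chr6:27106794-27117075, was 10282 bp wide with a fold enrichment of 13.2, and met origins of both lines and CUL4A. All 9 met origins of both lines and a CUL4A region. Of all 181 H3K4me3 peaks of the MHC interval, with a median width of 2439 bp, 73.5% met a U2OS origin. An HCT116 RepID KO origin was met by 67.4% of them and a CUL4A region by 50.3%. How far width alone gives the contacts of the wide peaks was not tested.

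The deposited score ranks regions within a list. By it, the strongest regions of several lists in the histone gene interval gathered near 27.2 Mb. The U2OS origin with the highest score, 956, was also the widest at 8600 bp (chr6:27212801-27221400). The HCT116 RepID KO origin with the highest score, 775, lay inside it (chr6:27217001-27221200), as did the H3K9me3 peak with the highest fold enrichment, 7.59 (chr6:27220853-27221353). The WT SKP2 peak with the highest score of the interval, 503, lay just to the right of it (chr6:27222674-27224783) and met another origin and a CDT2 peak.

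Other leading regions of the histone gene interval met fewer lists. The CUL4A region with the highest score, 109, was also its widest at 6800 bp (chr6:26861001-26867800) and met origins of both lines, among them the widest HCT116 RepID KO origin of the interval (chr6:26863401-26868000). The CDT2 peak with the highest score, which was also the widest at 1037 bp, lay at chr6:26321887-26322923 and met an H3K4me3 peak but no origin. The H3K4me3 peak with the highest fold enrichment, 20.8, lay at chr6:28174882-28176320 and met an origin, a CUL4A region and an H3K9me3 peak. For comparison, the highest CUL4A score of the MHC interval was 1910 and the medians of the 2 intervals were 39.0 and 93.0.

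In the MHC interval the leading regions of several lists lay together near 33.4 Mb. The U2OS origin with the highest score, 2373 (chr6:33388201-33397200), and the CUL4A region with the highest score, 1910 (chr6:33388201-33402200), started at the same position, and both met the widest H3K4me3 peak. The widest origin, of 23800 bp (chr6:33160001-33183800), and the widest CUL4A region, of 21800 bp (chr6:33161801-33183600), coincided as well. The H3K4me3 peak with the highest fold enrichment, 30.4, lay at chr6:30291445-30296085 and met 6 other lists. The HCT116 RepID KO origin with the highest score, 9145, spanned 28000 bp (chr6:31991401-32019400) and met U2OS origins, CUL4A, CDT2 and H3K9me3, but no SKP2 peak of its own line.

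CDT2 and H3K9me3 had their leading regions of the MHC interval elsewhere. The CDT2 peak with the highest score, 298, lay at chr6:33072190-33073685 and met an origin, a CUL4A region and a WT SKP2 peak. The H3K9me3 peak with the highest fold enrichment of the interval lay at chr6:33551896-33552975 and met H3K4me3, CUL4A, CDT2 and origins of both lines. H3K9me3 peaks were short throughout, with medians of 292 bp in the histone gene interval, 379 bp in the MHC interval and 309 bp in the rest, and 70.9% of those in the 6p interval had a −log10 q of at least 2. Read from the H3K9me3 peaks, 55.6% of 234 met a CUL4A region in the 6p interval against 25.9% in the rest, a difference of 29.7 points (23.1 to 36.1), and 28.6% met a CDT2 peak against 18.3% (10.3 points, 4.72 to 16.6). CUL4A regions covered 14.2% of the bases of the 6p interval and 2.37% of those of the rest. Read from the ligase lists, no difference was detectable. Of CUL4A regions 36.8% met an H3K9me3 peak in the 6p interval and 34.3% in the rest, a difference of 2.46 points (-3.15 to 8.36), and for CDT2 peaks the difference was 0.514 points (-7.73 to 8.94).

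SKP2 peaks of the 6p interval lay mostly at origins in the MHC interval. Of the 58 WT peaks there 52 met an origin of the HCT116 RepID KO cells, or 89.7% (79.2 to 95.2%), against 35.9% of 457 in the rest of the chromosome (31.6 to 40.4%). Of the 52 RepID KO peaks 41 did so, or 78.8% (66.0 to 87.8%), against 37.4% (33.4 to 41.5%). These origins covered 26.3% of the bases of the MHC interval and 5.36% of those of the rest. With 1 kb around the centres the share of WT peaks was 43.1% (31.2 to 55.9%) in the MHC interval and 24.5% (20.8 to 28.7%) in the rest. For RepID KO peaks of the whole 6p interval the difference from the rest went from 35.8 points (22.4 to 46.4) to 2.62 (-8.23 to 16.0) in this way. The origins come from RepID KO cells only, so the WT peaks were compared with origins of the other genotype.

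In the histone gene interval SKP2 was sparse and the genotypes had no peak in common. Of the 5 WT peaks 1 met an origin of the RepID KO cells, and of the 4 RepID KO peaks 0 did. Read from the origins, 0 of 69 met a RepID KO SKP2 peak, which allows a share of up to 4.35% by the floor of 3 counts and 5.27% by the Wilson interval. The rest of the chromosome had 5.79%, and the interval of the difference, histone minus rest, ran from -6.61 to -0.469 points. The WT peaks were 471 to 2110 bp wide and the RepID KO peaks 201 to 310 bp. With 5 and 4 peaks no difference between the genotypes could be measured.

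In the MHC interval 6 WT peaks met a RepID KO peak, 10.3% of the WT peaks (4.83 to 20.8%) and 11.5% of the RepID KO peaks, and in the rest of the chromosome these shares were 10.3% and 8.53%. All 6 shared places also met U2OS origins, CUL4A and HCT116 RepID KO origins. Among all 58 WT peaks of the MHC interval, shared or not, these shares were 91.4%, 74.1% and 89.7%. Among all 52 RepID KO peaks there they were 92.3%, 63.5% and 78.8%. The shared place with the highest RepID KO score, 2020, was at chr6:32222567-32222957, and the WT peak there had a score of 1482. Another, at chr6:31818134-31818469 in WT cells, had a score of 809 and met a CDT2 peak too. CDT2 peaks met 22.2% of the WT SKP2 peaks of the 6p interval and 17.5% in the rest, a difference of 4.72 points (-4.57 to 16.8).

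Merging all overlapping regions of the 8 lists gave 800 loci in the 6p interval. In the histone gene interval 60.5% of 261 loci held a single list, near the 62.9% of the rest of chromosome 6, whereas in the MHC interval 40.8% of 539 did. Loci with H3K4me3 alone were 23.8% of the loci of the histone gene interval (19.0 to 29.3%), 5.19% of those of the MHC interval (3.62 to 7.41%) and 2.57% of those of the rest (2.26 to 2.92%). Origins alone were 22.2%, 22.8% and 26.0%. Loci of all lists are the denominator, so the share with H3K4me3 alone also depends on how dense H3K4me3 is. Per H3K4me3 peak, 47.0%, 15.5% and 23.7% met no other list, in the same order.

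**Figure D5:**
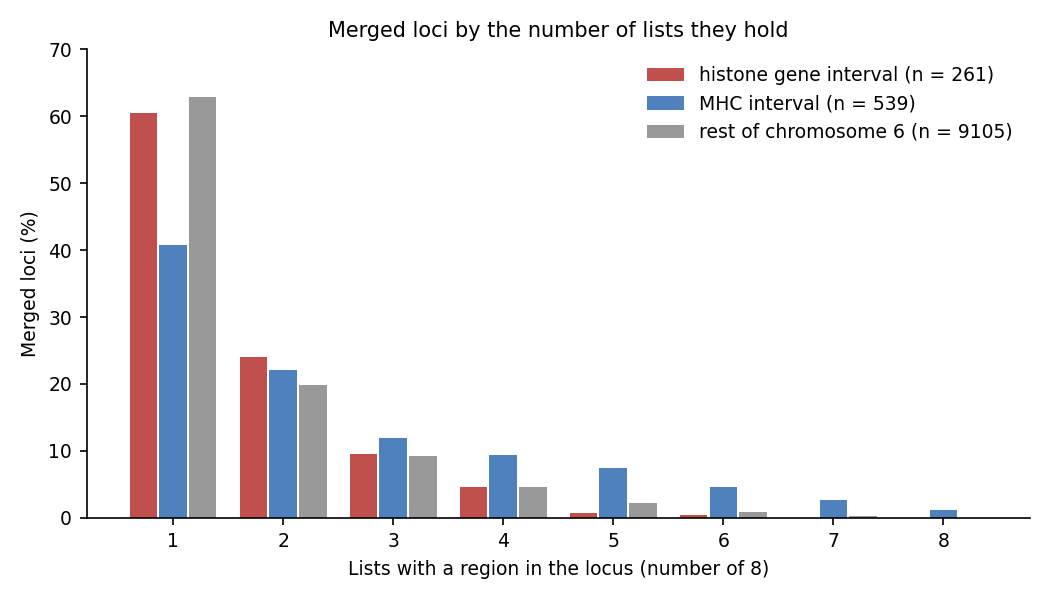
Percentage of merged loci by the number of the 8 lists that have a region in them, in the histone gene interval (red), the MHC interval (blue) and the rest of chromosome 6 (grey). Loci with 5 or more lists are a larger share of the MHC loci than of the others. Loci with 7 or 8 lists are at 0 of 261 in the histone gene interval and at 0.220% and 0.0439% in the rest. With 261 loci this 0 cannot be told apart from the shares of the rest.

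All 8 lists met in 6 loci of the 6p interval, all of them in the MHC interval, and in 4 of the 9105 loci of the rest of the chromosome. The longest was chr6:33127401-33184400, which chained 5 CUL4A regions, 5 WT SKP2 peaks, 5 H3K9me3 peaks, 3 origins of each line, 3 H3K4me3 peaks, 2 CDT2 peaks and 2 RepID KO SKP2 peaks over 57000 bp. The next were chr6:33690601-33741800, chr6:33621801-33667000, chr6:31817801-31857659 and chr6:33376401-33402200. In the histone gene interval the locus with the most lists, 6, was chr6:26455601-26460096, of 4496 bp, with 1 region each of the 5 U2OS lists and of the HCT116 RepID KO origins. Long loci join regions in a chain, so that not every pair in them overlaps.

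The density of regions did not end at 34.0 Mb. In the 2 Mb to the right of the interval there were 152 U2OS origins, 71 CUL4A regions and 37 H3K4me3 peaks, and in the 2 Mb to the left 31, 21 and 13. The first 0.5 Mb of the interval held 33 H3K4me3 peaks, more than the 13 of the whole 2 Mb to its left.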

How the data were processed

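Nascent strands and ChIP-Seq of CUL4A, CDT2, SKP2, H3K4me3 and H3K9me3 were measured, with 1 sample per list. The authors called the regions before they deposited them, on build hg19 with MACS and SICER according to the submitters' processing notes, which give no versions. The methods give a false discovery rate of 0.01 for origins and 1e-05 for CUL4A. The deposited origin, CUL4A, CDT2 and SKP2 lists carry a score of the authors, whose scale is not stated, so scores rank regions within a list only. The deposited histone lists give the authors' fold enrichment over the control, a ratio, and −log10 p and −log10 q. They have the form of MACS2 broad peaks although the methods name SICER. Further SKP2 columns were not used.

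A region belonged to the interval of its centre, and positions are counted from 1. Chromosome 6 was taken to end at the largest end over the 8 lists, 171053800. Density ratios have exact conditional (Clopper-Pearson) 95% intervals, shares Wilson and differences Newcombe 95% intervals. Beside some counts of 0, the share that a floor of 3 counts allows is also given. A ratio was called where its interval left out 1 and it was at least 1.5 or at most the inverse. Regions named are, per list and interval, the one with the highest score or fold enrichment and the widest, then the loci with the most lists, the bins with the most and the fewest regions, the wide H3K4me3 peaks and the SKP2 peaks of both genotypes; the last 2 kinds, the blocks and the partners of H3K4me3 and H3K9me3 peaks were added after values had been seen. The intervals and lists of comparisons were chosen with earlier results of these data known. Gene starts were not analysed, and no sequence is shown, because the reference used here is of another build. The functions were tested on simulated data. Python 3.11.15, NumPy 2.4.6, SciPy 1.17.1 and matplotlib 3.10.9 were used.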

Additional observations from a re-analysis of the deposited data

How the results depend on the processing

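Of 58 alternatives for the density of the whole 6p interval over the rest, 55 kept direction and call. Against the rest of chromosomes 1 to 22 and X, H3K9me3 came to 1.49 and SKP2 in RepID KO cells to 1.49, and against the rest of 6p H3K9me3 came to 1.48. All 58 alternatives for the MHC interval over the rest kept both. Between the histone gene and MHC intervals 47 of 50 kept both. With regions within 1 kb merged, U2OS origins came to 0.756, and H3K4me3 came to 1.41 with the stronger 50% of peaks and to 1.12 by bases covered.

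For the histone gene interval over the rest, 41 of 58 alternatives kept direction and call, 9 changed direction, 2 lost a call and 6 gained one. The call was lost for U2OS origins, at 1.27 against the rest of 6p and 1.22 against the rest of chromosomes 1 to 22 and X. Calls as lower were gained for CDT2 and RepID KO SKP2. CDT2 came to 0.556 against 6p and 0.635 by bases covered, with an interval of 0.258 to 0.874 against the rest of chromosomes 1 to 22 and X. RepID KO SKP2 came to 0.368 against 6p, 0.340 against the rest of chromosomes 1 to 22 and X and 0.252 by bases covered. Direction changed in lists that passed no call as reported. CUL4A came to 0.544 with the stronger 50%, 0.860 against the rest of 6p and 0.748 against the rest of chromosomes 1 to 22 and X. HCT116 RepID KO origins came to 0.692 with the stronger 50% and 0.862 by bases covered. They came to 0.856 against 6p and 0.950 against the rest of chromosomes 1 to 22 and X. H3K9me3 came to 1.04 with the stronger 50%, and WT SKP2 to 1.62 by bases covered, which has no interval and passed the rule by size alone.

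Of 92 alternatives for shares in the 6p interval minus the rest, 69 kept direction and call. With 1 kb around centres the differences in percentage points were 1.27 for CUL4A at origins, 2.75 for CDT2 at origins, -1.56 for CUL4A at CDT2, -4.74 for CUL4A at H3K9me3, 0.506 for U2OS origins at H3K9me3, -0.101 for HCT116 RepID KO origins at RepID KO SKP2, 2.62 for RepID KO SKP2 at its origins and -1.35 for H3K4me3 at CUL4A. With 50% of the region covered they were -6.41 for CUL4A at CDT2, -2.93 for CUL4A at H3K9me3, -0.388 for U2OS origins at H3K9me3, 0.0841 for HCT116 RepID KO origins at RepID KO SKP2 and -0.596 for RepID KO SKP2 at CDT2. For CUL4A at CDT2 this interval, -8.68 to -3.27, left out 0, while the difference as reported was 4.77 (-0.620 to 10.5). With the stronger 50% of both lists they were -1.32 and -1.46 for CUL4A at CDT2 and H3K9me3, and -12.4 and -6.93 for WT and RepID KO SKP2 at CDT2. A gap of up to 1 kb gave 5.58 for CUL4A at CDT2 and 10.6 for WT SKP2 at CDT2. Between the histone gene and MHC intervals 65 of 89 alternatives for shares kept direction and call, 16 lost the call and 3 gained one. The calls lost with 1 kb around centres included CUL4A (-1.62) and CDT2 (-19.7) at U2OS origins, HCT116 RepID KO origins at U2OS origins (-3.94) and the reverse (-7.88), and WT (-43.1) and RepID KO SKP2 (-30.8) at RepID KO origins. They also included CUL4A at CDT2 (-5.96) and U2OS origins at H3K9me3 (-6.12). With 50% covered the sign changed for CUL4A at CDT2, to 7.83 (0.546 to 22.1), and for CUL4A at H3K9me3, to 12.3 (2.95 to 27.6), both with intervals that leave out 0. It also changed for CUL4A at H3K9me3 with 1 kb around centres, to 10.3 (-3.82 to 27.3). With the stronger 50% it changed for CUL4A at H3K4me3, to -12.4 (-27.7 to 27.8), and for U2OS origins at H3K4me3, to -2.14 (-13.9 to 12.6). Apart from the narrower regions that the 1 kb alternative makes, the cause was not tested.

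No paired analysis was possible because each list stands for 1 sample. The share of gene starts with a region, both at the start and within 2 kb, was not run, since the gene positions used here are of another build. Depth was unknown, each condition had 1 library, and counts under 15 in the histone gene interval (CDT2 and SKP2) leave wide intervals.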
